A study of Homo sapiens with 3 samples.

Results

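The BCL2 family decides whether a cell keeps its mitochondria sealed or starts to die, and 10 of its genes were followed here through knockdown of FOXP4, a forkhead transcription factor, in NCI-N87 cells, a line derived from a human gastric carcinoma. The genes were taken by symbol from the deposited table of transcript levels, and all 10 were found among its 31907 rows. They are MCL1 and BCL2L1, which encode survival proteins, BAX and BAK1, which encode the pore-forming effectors, and PMAIP1, BBC3, BCL2L11, BID, BAD and BIK, which encode BH3-only death proteins. There were 3 libraries: 1 from cells given the siRNA labelled siRNA1 against FOXP4, 1 from cells given siRNA2 against FOXP4, and 1 from cells given a scrambled siRNA, labelled WT. All 3 were transfected with Lipofectamine 2000, and no untransfected library was analysed here. The siRNAs are different reagents, the scrambled library has no replicate, and the labels do not say whether the libraries came from separate cultures. Levels are in TPM, which divides reads by transcript length and library total, so levels of different genes can be set side by side. Each value is 1 library.

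Survival proteins such as MCL1 and BCL-XL hold BAX and BAK in check on the outer mitochondrial membrane. BH3-only proteins bind into a groove of the survival proteins, and some of them also switch on BAX and BAK directly. Released effectors assemble into pores, cytochrome c escapes, and the caspases of the apoptosome follow. MCL1 and NOXA, the product of PMAIP1, are short-lived proteins that bind each other, and epithelial tumours often depend on MCL1 or BCL-XL to survive. The table gives 1 value per gene, so splice forms with other functions, such as the short forms of MCL1 and BCL-X, were not resolved.

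The libraries were alike in depth and unlike in composition. The estimated depth was about 18200000 reads with siRNA1, 18700000 with siRNA2 and 18000000 with the scrambled siRNA. FOXP4 itself measured 51.6 TPM with siRNA1, 36.7 TPM with siRNA2 and 93.9 TPM with the scrambled siRNA. Mitochondrially encoded genes took 10.4% of TPM with siRNA1, 1.92% with siRNA2 and 6.37% with the scrambled siRNA. GC-rich genes were lower in the siRNA1 library as a whole: over 12301 genes (no replicates of one another), the Spearman correlation of the log2 fold with GC content was -0.61 for siRNA1 and -0.10 for siRNA2. With that trend removed the FOXP4 log2 fold was -0.20 in place of -0.85 with siRNA1 and -1.02 in place of -1.33 with siRNA2. All 8 epithelial and NCI-N87 markers averaged at least 1 TPM, with EPCAM at 1150, 813 and 1136 TPM with siRNA1, siRNA2 and the scrambled siRNA. CDH1, which encodes E-cadherin, was low at 5.86, 11.6 and 4.16 TPM in that order. ERBB2, for whose amplification the line is known, stood at 58.9, 63.9 and 89.8 TPM. By level it ranked only 3354, 2827 and 2136 of all 31907 rows in that order. Passing 1 TPM therefore does not settle the identity of the line, which was taken from the labels. Of 9 immune, fibroblast and endothelial markers, 7 were matched to the table, 3 of these were listed at 0 throughout, and 1, COL1A1, averaged at least 1 TPM. The part of the GC and mitochondrial differences in the results was not tested beyond the values given without them.

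Because a forkhead factor was knocked down and stress-induced genes were among the members that stood out, the bases just before the RefSeq gene start are shown for 3 BH3-only genes, PMAIP1, BBC3 and BCL2L11. The sequences are from RefSeq (GRCh38.p14), cover the 250 bases before the start, and read 5′ to 3′ on the strand of the gene. GENCODE 29, which gives the gene positions below, starts these genes further upstream, so the RefSeq start lies 48 bases inside the GENCODE gene for PMAIP1, 99 bases for BBC3 and 1536 bases for BCL2L11. In PMAIP1 (chr18:59899746-59899995, plus strand) the capitals mark a CRE core, bound by ATF and CREB factors, which reads TGACGT on the other strand. In BBC3 (chr19:47232668-47232917, minus strand) they mark an AP-1 element, bound by FOS and JUN dimers. In BCL2L11 (chr2:111120664-111120913, plus strand) they mark first a forkhead core and then an EGR element.
PMAIP1: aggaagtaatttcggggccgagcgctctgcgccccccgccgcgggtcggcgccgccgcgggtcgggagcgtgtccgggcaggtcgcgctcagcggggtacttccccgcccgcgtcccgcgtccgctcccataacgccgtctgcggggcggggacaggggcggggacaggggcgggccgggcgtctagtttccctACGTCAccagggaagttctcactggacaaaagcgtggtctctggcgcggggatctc
BBC3: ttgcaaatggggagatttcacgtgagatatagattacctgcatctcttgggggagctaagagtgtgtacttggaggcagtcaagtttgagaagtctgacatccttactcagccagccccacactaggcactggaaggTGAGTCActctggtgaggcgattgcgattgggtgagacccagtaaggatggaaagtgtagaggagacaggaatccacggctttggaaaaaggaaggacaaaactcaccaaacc
BCL2L11: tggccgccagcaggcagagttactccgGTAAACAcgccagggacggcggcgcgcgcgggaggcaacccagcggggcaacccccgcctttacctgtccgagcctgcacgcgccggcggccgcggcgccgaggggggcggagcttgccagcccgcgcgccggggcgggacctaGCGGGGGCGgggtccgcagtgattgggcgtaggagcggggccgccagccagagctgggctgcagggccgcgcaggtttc

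RefSeq windows were matched for 8 of the 10 genes, and MCL1 and BIK had none. These genes had 14 windows, since BID, BAD and BCL2L1 have several starts, and a gene counts when any of its windows holds a motif, whereas the shares over all genes are per window. On both strands, 7 motifs were searched in the 250 bases. The CRE core (TGACGT) was found in 3 of the 14 windows, from 2 of the 8 genes, PMAIP1 and BAD, and in 7.10% of all 35116 windows. Its match in PMAIP1 began 56 bases before the RefSeq start. The AP-1 element (TGACTCA or TGAGTCA) was found for BBC3 alone, 113 bases before the start, against 4.20% of all windows. The forkhead core (TGTTTAC) was found for BCL2L11 alone, 223 bases before the start, against 2.98% of all windows. The EGR element (GCGGGGGCG or GCGTGGGCG) was also found for BCL2L11 alone, against 5.37%, and it overlaps a GC box there. The GC box (GGGCGG) was found in 10 of the 14 windows, from 6 of the 8 genes, and in 42.6% of all windows. Neither the CArG box, the SRF element, nor the ETS motif CCGGAAGT was found for any of the 8, against 1.16% and 3.42% of all windows. A match is a run of letters and was not shown to be bound.

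MCL1 stood out most among the 10 genes. MCL1 (ENSG00000143384.12, chromosome 1, 150574551 to 150579738, minus strand, GRCh38 in GENCODE 29) encodes a survival protein that restrains BAK and BIM. Its level was 1780 TPM with siRNA1, 4097 TPM with siRNA2 and 381 TPM with the scrambled siRNA. Both knockdown libraries were far above the scrambled one, 4.67-fold with siRNA1 and 10.7-fold with siRNA2, and the siRNA2 library held 2.30 times the level of the siRNA1 library. Among the 14429 genes averaging 1 TPM or more over the 3 libraries, its log2 fold of 2.22 with siRNA1 ranked 115 from the top and that of 3.42 with siRNA2 ranked 47. In a bulk library, more RNA per cell and more cells with the RNA cannot be told apart. Folds on the log2 scale were taken on log2(TPM + 1), which understates the change of low genes. By level, MCL1 ranked 40 of all 31907 rows with siRNA1, 14 with siRNA2 and 382 with the scrambled siRNA. In limma, which set both knockdown libraries against the scrambled one with 1 residual degree of freedom, the mean log2 fold was 2.82 ± 0.72 (SE) and did not pass over all genes (adjusted p = 0.9999, unadjusted p = 0.00982).

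BCL2L1, which encodes BCL-XL, stood nearer the control. BCL2L1 (ENSG00000171552.12, chromosome 20, 31664452 to 31723989, minus strand) measured 350 TPM with siRNA1, 631 TPM with siRNA2 and 311 TPM with the scrambled siRNA. The siRNA1 library was 1.12-fold above the scrambled one, and the siRNA2 library was 2.03-fold above it. Exons of the antisense gene ABALON overlap 43.0% of its exon length, and the counting is not stated to use strand, so reads of the pair cannot be told apart. ABALON itself was listed at 5.54, 8.62 and 3.91 TPM with siRNA1, siRNA2 and the scrambled siRNA.

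The effectors lay on opposite sides of the control. BAX (ENSG00000087088.19, chromosome 19, 48954815 to 48961798, plus strand), whose product moves from the cytosol into the mitochondrial membrane, measured 216 TPM with siRNA1, 233 TPM with siRNA2 and 380 TPM with the scrambled siRNA. Both knockdown libraries lay below the scrambled one by a similar amount, with log2 folds of -0.81 and -0.70. BAX is GC-rich at 58.9%, and with the GC trend removed the log2 folds were -0.38 and -0.40. BAK1 (ENSG00000030110.12, chromosome 6, 33572547 to 33580293, minus strand), whose product sits in that membrane all the time, measured 89.2 TPM with siRNA1, 160 TPM with siRNA2 and 76.6 TPM with the scrambled siRNA. Its siRNA2 library was 2.09-fold above the scrambled one and its siRNA1 library 1.16-fold above. BAK1 has 2 processed pseudogenes in the annotation, of which BAK1P1 was listed at 0, 2.04 and 0.33 TPM with siRNA1, siRNA2 and the scrambled siRNA.

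Among the BH3-only genes PMAIP1 had the largest folds. PMAIP1 (ENSG00000141682.11, chromosome 18, 59899948 to 59904306, plus strand) encodes NOXA, which binds MCL1 with preference and leads to its breakdown. It measured 147 TPM with siRNA1, 212 TPM with siRNA2 and 33.6 TPM with the scrambled siRNA. The knockdown libraries were 4.37-fold and 6.32-fold above the scrambled one and lay close to each other, with a siRNA2 level 1.45 times that of siRNA1. Its log2 folds of 2.10 and 2.62 ranked 142 and 135 from the top of the genes tested. PMAIP1 is poor in GC at 37.2%, and with the GC trend removed the log2 folds were 1.60 with siRNA1 and 2.72 with siRNA2. The mean log2 fold in limma was 2.36 ± 0.48 (SE) and did not pass over all genes (adjusted p = 0.9999, unadjusted p = 0.00383).

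BBC3 differed most between the siRNAs as deposited, though with the GC trend removed MCL1 did. BBC3 (ENSG00000105327.17, chromosome 19, 47220822 to 47232766, minus strand) encodes PUMA, which binds all the survival proteins. It measured 145 TPM with siRNA1, 438 TPM with siRNA2 and 173 TPM with the scrambled siRNA. The siRNA2 library was 2.53-fold above the scrambled one, while the siRNA1 library was at 83.8% of it. BBC3 is the most GC-rich of the 10 genes at 69.7%, and removing the GC trend turned its siRNA1 log2 fold to 0.81 in place of -0.25 and left 1.70 with siRNA2.

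BCL2L11 and BID, whose products can switch on BAX and BAK directly, were lower with both siRNAs. BCL2L11 (ENSG00000153094.22, chromosome 2, 111119378 to 111168447, plus strand), the gene of BIM, measured 7.45 TPM with siRNA1, 8.75 TPM with siRNA2 and 13.8 TPM with the scrambled siRNA, log2 folds of -0.81 and -0.60. The siRNA levels lay within 1.17-fold of each other. Exons of a long non-coding RNA on the opposite strand, MIR4435-2HG, overlap 10.9% of the BCL2L11 exon length. Under the similar name MIR4435-1HG, a gene was listed at 4.4, 17.6 and 5.6 TPM with siRNA1, siRNA2 and the scrambled siRNA. Whether the 2 names are 1 gene was not checked. The counting is not stated to use strand, so reads of an overlapping pair cannot be told apart. BID (ENSG00000015475.18, chromosome 22, 17734138 to 17774770, minus strand), which links death receptors to mitochondria once caspase-8 has cut it, measured 27.8 TPM with siRNA1, 27.6 TPM with siRNA2 and 38.6 TPM with the scrambled siRNA. Its log2 folds of -0.46 and -0.47 were nearly equal, and with siRNA2 the median of all genes was itself -0.24. Removing the GC trend gave BID log2 folds of -0.44 with siRNA1 and -0.22 with siRNA2.

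BAD and BIK showed no shared direction. BAD (ENSG00000002330.13, chromosome 11, 64269830 to 64284704, minus strand), whose product is held inactive by survival kinases, measured 4.50 TPM with siRNA1, 2.40 TPM with siRNA2 and 4.48 TPM with the scrambled siRNA. Those values rested on about 34.8, 18.8 and 35.7 estimated reads, and GPR137 on the opposite strand overlaps 23.7% of its exon length. Removing the GC trend gave log2 folds of 0.86 with siRNA1 and -0.35 with siRNA2, in place of 0.01 and -0.69. BIK (ENSG00000100290.2, chromosome 22, 43110748 to 43129712, plus strand), a BH3-only gene whose product sits mainly on the endoplasmic reticulum, measured 166 TPM with siRNA1, 77.4 TPM with siRNA2 and 92.5 TPM with the scrambled siRNA. It was 1.79-fold above the scrambled library with siRNA1 and at 83.7% of it with siRNA2. With the GC trend removed the siRNA1 log2 fold was 1.14 in place of 0.84, past 2-fold. The siRNA2 log2 fold of -0.25 turned to 0.06 with the GC trend removed and to 0.02 with median-of-ratios rescaling, so it stood near the control.

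**Figure D1:**
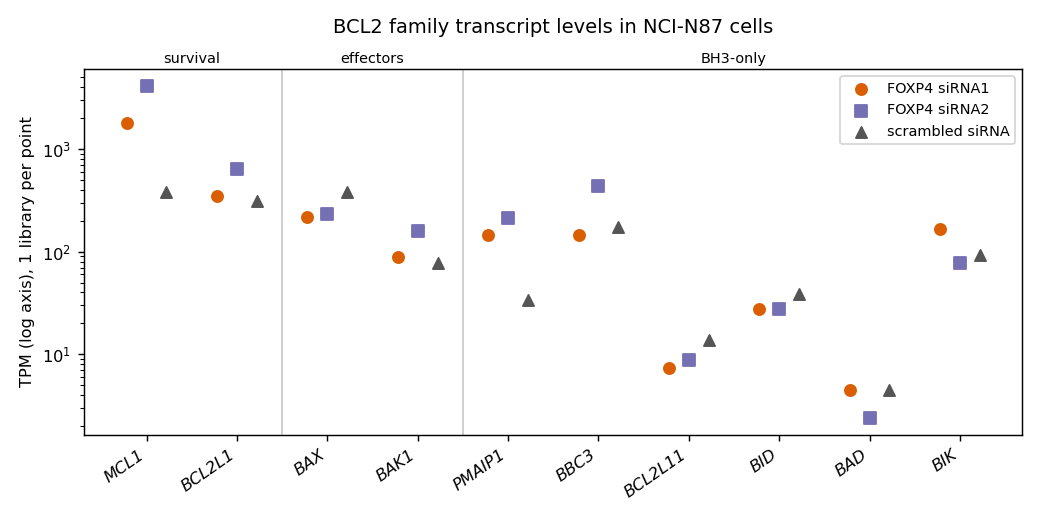
TPM of each of the 10 BCL2 family genes on a log axis, with 1 point per library and genes ordered by role. MCL1 and PMAIP1 are well above the scrambled library with both siRNAs, at 1780 and 4097 against 381 TPM and at 147 and 212 against 33.6 TPM, while BAX is below it with both.

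Counted as a group, few members passed 2-fold with siRNA1 and more did with siRNA2. With siRNA1, 2 of 10 were at least 2-fold higher, MCL1 and PMAIP1, where 5.27% of all 14429 genes were, and 0 were at least 2-fold lower, where 6% were. With the GC trend removed BIK joined them, which made 3, where 448 of 12301 genes were at least 2-fold higher. With siRNA2, 5 of 10 were at least 2-fold higher, MCL1, PMAIP1, BBC3, BAK1 and BCL2L1, where 6.88% of all genes were, and 0 were at least 2-fold lower, where 13.2% were. BAK1 and BCL2L1 lay just past the threshold, with log2 folds of 1.06 and 1.02. Without mitochondrially encoded genes, which were scarce with siRNA2, these were 0.99 and 0.95, and 3 members were counted in place of 5. In that setting 923 of 14593 genes were at least 2-fold higher with siRNA2. Over all genes siRNA2 had 993 at least 2-fold higher and 1902 lower as deposited, against 1382 higher and 1173 lower with median-of-ratios rescaling, and the same 5 members passed after that rescaling. The median log2 fold of the 10 genes was 0.09 with siRNA1 and 0.38 with siRNA2, beside 0.03 and -0.24 for all genes tested. Both siRNA comparisons share the scrambled library, so these counts are not independent of each other. The genes were chosen with earlier results of these data known, so the counts are a description.

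**Figure D2:**
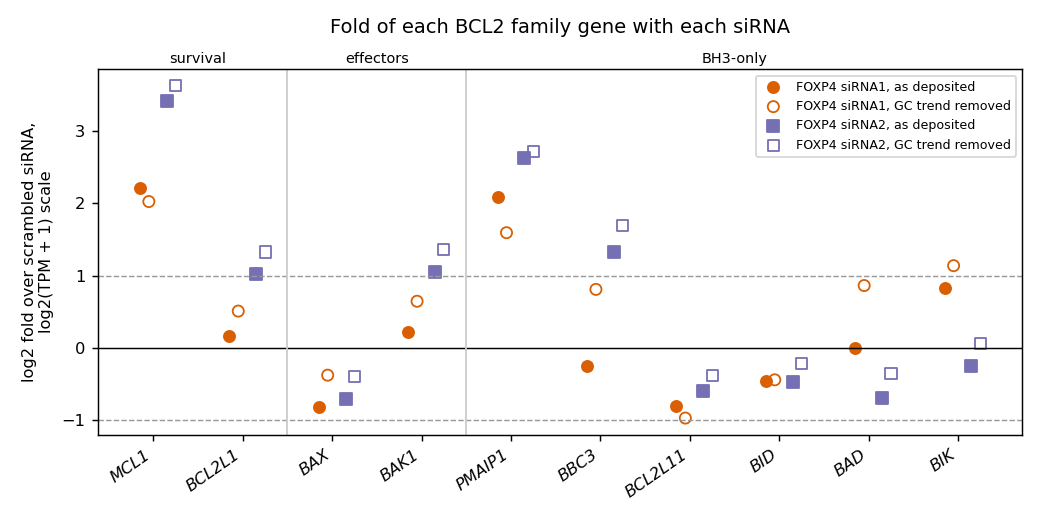
Log2 fold over the scrambled library for each gene, 1 point per siRNA. Filled points are values as deposited, open points have the GC trend removed, and dashed lines mark 2-fold. MCL1 and PMAIP1 stay above 2-fold in all 4 values, and BBC3 with siRNA1 moves across 0, at -0.25 as deposited and 0.81 with the trend removed.

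No gene passed limma over the 14429 genes tested (0% called, smallest adjusted p = 0.9999), and 428 had an unadjusted p under 0.05. Of the 10 members 0 passed. With a mean of at least 10 TPM, which kept 8 of the 10, limma called 2 members over all 9129 genes, PMAIP1 (adjusted p = 0.00397) and MCL1 (adjusted p = 0.0115), both higher, where 0.92% of genes were called higher and 0.0986% lower. Among 10858 protein-coding genes the same 2 were called (adjusted p = 0.00373 for PMAIP1 and 0.0130 for MCL1), where 0.764% were called higher and 0.0829% lower. These p-values do not measure variation between replicate cultures. The only spread was the difference between 2 reagents, and limma drew each gene's spread toward that of the other genes tested. FOS, with nearly equal log2 folds of 3.15 and 3.18, thus had an SE of 0.45. The folds of MCL1 and PMAIP1 were the same in these gene sets, so their calls changed with the genes tested alone.

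The siRNAs also differed from each other. With siRNA2 over siRNA1, 2 of the 10 genes were at least 2-fold higher, BBC3 at 3.02-fold and MCL1 at 2.30-fold, where 5.99% of all genes were. With the GC trend removed, the 2 were MCL1 at 3.03-fold and PMAIP1 at 2.18-fold, and BBC3 stood at 1.85-fold. Of all 12301 genes in that setting, 6.28% were at least 2-fold higher. BIK was the 1 member at least 2-fold lower with siRNA2 than with siRNA1, at 77.4 against 166 TPM, where 12.8% of all genes were. With the GC trend removed the log2 difference was -1.22 for BAD and -1.08 for BIK. The share of all genes lower in that setting was not counted, so no count of members is read from it. BAD rested on about 18.8 estimated reads with siRNA2. As deposited, BID and BAX were within 1.08-fold between the siRNAs. With 1 library each there was no test of these differences.

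The order of levels differed between the knockdown libraries and the scrambled one. In the scrambled library MCL1 and BAX were nearly level at 381 and 380 TPM, ahead of BCL2L1 at 311 TPM and BBC3 at 173 TPM. MCL1 led alone in the knockdown libraries and took 60.7% of the summed TPM of the 10 genes with siRNA1 and 69.6% with siRNA2, against 25.3% with the scrambled siRNA. PMAIP1 was the fifth gene in order with both siRNAs and the eighth with the scrambled siRNA. BID, BCL2L11 and BAD were among the 4 lowest in all 3 libraries. The 10 genes together held 2932 TPM with siRNA1, 5887 TPM with siRNA2 and 1505 TPM with the scrambled siRNA. Without MCL1 the other 9 held 1153, 1790 and 1124 TPM in that order, so most of the added TPM was MCL1.

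Ratios between genes of 1 library do not depend on a scale factor shared by all its genes, but they keep the GC trend. They are given as deposited, and the pairs were chosen with the levels known. MCL1 over PMAIP1, the pair whose products bind each other, was 12.1 with siRNA1, 19.3 with siRNA2 and 11.4 with the scrambled siRNA. As deposited, the folds of the pair were thus nearly equal with siRNA1. With the GC trend removed their siRNA1 log2 folds were 2.03 and 1.60. MCL1 over BCL2L1 was 5.09, 6.50 and 1.23 in that order, so MCL1 stood further above the other survival gene with either siRNA. MCL1 over BAX was 8.23 with siRNA1, 17.6 with siRNA2 and 1.00 with the scrambled siRNA. Removing the GC trend gave siRNA1 log2 folds of 2.03 for MCL1 and -0.38 for BAX, in place of 2.22 and -0.81. BAX over BAK1 was 2.42, 1.45 and 4.96 in that order, so the effectors stood closer in level with either siRNA. The summed survival genes over the summed 6 BH3-only genes gave 4.28 with siRNA1, 6.17 with siRNA2 and 1.95 with the scrambled siRNA. BCL2L1 alone over the same BH3-only sum gave 0.70, 0.82 and 0.87, so the higher survival ratio rested on MCL1. These are ratios of transcripts, not of proteins, and cell death was not measured in the data used here.

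**Figure D3:**
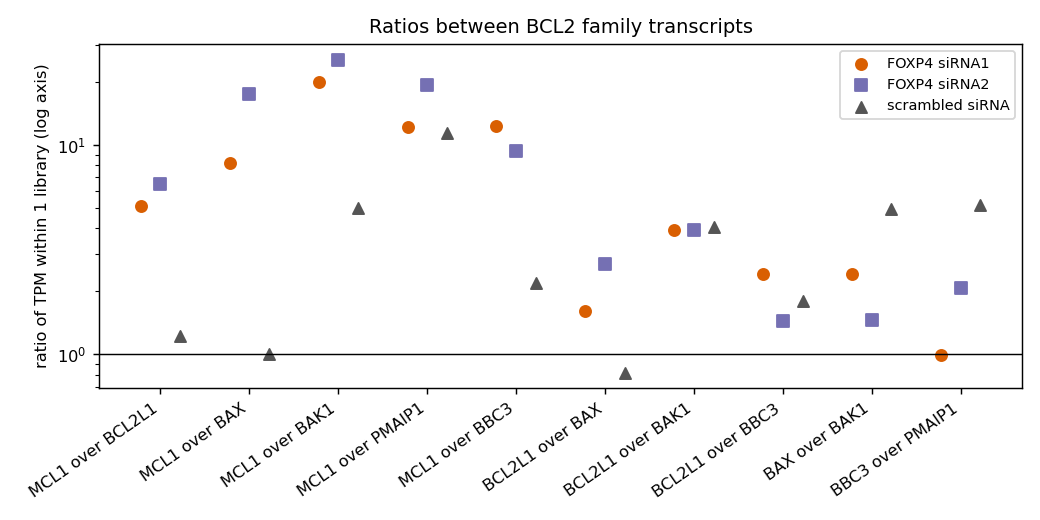
Ratio of TPM as deposited between pairs of BCL2 family genes within each library on a log axis, with a line at 1. The ratios of MCL1 to BCL2L1, BAX, BAK1 and BBC3 are higher with both siRNAs than with the scrambled siRNA, and BAX over BAK1 is lower with both, at 2.42 and 1.45 against 4.96.

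Of the remaining BCL2 and BNIP family genes, 1 passed 2-fold, with siRNA2 alone. Of 15 listed, 10 averaged at least 1 TPM. Of these, 0 were at least 2-fold higher with either siRNA, beside 5.27% of all genes with siRNA1 and 6.88% with siRNA2. With siRNA1, 0 were at least 2-fold lower, beside 6% of all genes. With siRNA2, 1 was at least 2-fold lower, a share near the 13.2% of all genes. That gene was BMF, a BH3-only gene named after its values were seen, at 20.7 TPM with siRNA1, 6.06 TPM with siRNA2 and 20.8 TPM with the scrambled siRNA. BCL2 itself was low at 0.32, 0.42 and 0.30 TPM in that order, and BCL2A1 stayed under 0.2 TPM. BOK, an effector-like relative of BAX, measured 45.1 TPM with siRNA1, 43.0 TPM with siRNA2 and 81.2 TPM with the scrambled siRNA, log2 folds of -0.83 and -0.90 that were 0.01 and -0.57 with the GC trend removed. BNIP3L, a mitophagy receptor, measured 68.8, 53.5 and 40.1 TPM in that order, and BNIP2 and BCL2L13 were also above the control with both siRNAs, with log2 folds between 0.25 and 0.68. Removing the GC trend lowered the siRNA1 log2 folds, from 0.76 to 0.31 for BNIP3L, 0.68 to 0.20 for BNIP2 and 0.25 to 0.18 for BCL2L13. Those with siRNA2 became larger, at 0.53, 0.48 and 0.53 in that order. The list's median log2 folds were 0.25 and 0.18.

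Genes downstream of the mitochondria had a median below that of all genes with siRNA2. The list of the apoptosome, the caspases and the inhibitors of apoptosis (IAPs) had 16 tested genes. With siRNA1, 0 were at least 2-fold higher and 1 was lower, beside shares of 5.27% and 6% over all genes, so the lower share was near that of all genes. With siRNA2, 1 was higher and 5 were lower, beside 6.88% and 13.2% over all genes. ENDOG, a mitochondrial nuclease, measured 4.12 TPM with siRNA1, 12.3 TPM with siRNA2 and 30.5 TPM with the scrambled siRNA. BIRC3, which encodes the inhibitor cIAP2, measured 5.96, 11.9 and 3.48 TPM in that order, and its relative BIRC2 78.8, 70.4 and 39.8 TPM. BIRC6 measured 32.6 TPM with siRNA1, 28.2 TPM with siRNA2 and 17.1 TPM with the scrambled siRNA. Removing the GC trend lowered the siRNA1 log2 folds, from 0.64 to 0.08 for BIRC3, 0.97 to 0.49 for BIRC2 and 0.89 to 0.61 for BIRC6. Those with siRNA2 became larger, at 1.59, 0.91 and 0.88 in that order. CASP2, CASP6 and BIRC5, named after their values were seen, were also at least 2-fold lower with siRNA2. The initiator caspase gene CASP2 measured 24.2 TPM with siRNA1, 5.14 TPM with siRNA2 and 28.3 TPM with the scrambled siRNA. With the GC trend removed 3 genes were lower with siRNA2 in place of 5, where 850 of 12301 genes were. ENDOG and BIRC5 were those that no longer passed, with log2 folds of -0.89 and -0.76. ENDOG is GC-rich at 67.7%, and its siRNA1 log2 fold was then -1.67 in place of -2.62. Its siRNA1 value rested on about 21.8 estimated reads. The list's medians were 0.04 and -0.44.

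Death receptor genes included several above the control. Of 11 tested, 1 was at least 2-fold higher and 1 lower with siRNA1, beside 5.27% and 6% of all genes, and 4 were higher and 0 lower with siRNA2, beside 6.88% and 13.2%. Without mitochondrially encoded genes 2 were higher with siRNA2, since TNFRSF21 and CFLAR (CFLAR was named after its values were seen) then had log2 folds of 0.93 and 0.97. TNFRSF10A, a receptor for the death ligand TRAIL, measured 91.7 TPM with siRNA1, 124 TPM with siRNA2 and 40.8 TPM with the scrambled siRNA. TNFRSF10B, the other TRAIL receptor with a death domain, measured 203 TPM with siRNA1, 450 TPM with siRNA2 and 131 TPM with the scrambled siRNA. TNFRSF21 had log2 folds of 0.81 and 1.00, and TRADD, an adaptor of the TNF receptor and the 1 gene lower with siRNA1, had -1.25 and -0.82, which were -0.47 and -0.49 with the GC trend removed, so that it no longer passed. The list's medians were 0.45 and 0.40.

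Genes that control MCL1 protein or the outer membrane had medians near the control. Of 13 tested, 0 passed 2-fold either way with siRNA1, beside 5.27% higher and 6% lower over all genes. With siRNA2, 1 was higher and 2 lower, shares near the 6.88% and 13.2% of all genes. With the GC trend removed 3 were higher and 1 lower with siRNA2, where 1094 and 850 of 12301 genes were. USP9X, a deubiquitinase that stabilizes MCL1, measured 75.5 TPM with siRNA1, 101 TPM with siRNA2 and 45.1 TPM with the scrambled siRNA. FBXW7, part of a ligase that marks MCL1 for breakdown, had log2 folds of 0.73 and 0.52. With the GC trend removed the log2 folds with siRNA1 and siRNA2 were 0.34 and 1.30 for USP9X, in place of 0.73 and 1.15. For FBXW7 they were 0.57 and 0.74. The channel gene VDAC3 had -0.52 and -1.07, the second of which was -0.88 with the GC trend removed, and UBE2C, a mitotic ubiquitin carrier, -0.73 and -0.92. The list's medians were 0.26 and -0.13.

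Among transcription factors and regulators known to act on BCL2 family genes, 18 of 20 were tested, 6 were at least 2-fold higher and 0 lower with siRNA1, and 8 were higher and 1 lower with siRNA2. Over all genes the shares were 5.27% higher and 6% lower with siRNA1, and 6.88% higher and 13.2% lower with siRNA2. TRIB3, named after its values were seen, was among the 8 with a log2 fold of 1.00, and it had 0.93 without mitochondrially encoded genes, which left 7. EGR1 measured 1455 TPM with siRNA1, 2305 TPM with siRNA2 and 60.5 TPM with the scrambled siRNA. ATF3, a stress-induced factor that binds CRE elements, measured 191, 320 and 23.2 TPM in that order, and the AP-1 genes FOS and JUN had log2 folds of 3.15 and 2.44 with siRNA1 and 3.18 and 3.47 with siRNA2. These factors were listed with their large folds already known, so they add no independent support. FOXO3, a forkhead factor known to act on BCL2L11, was named after its values were seen and measured 100 TPM with siRNA1, 124 TPM with siRNA2 and 45.9 TPM with the scrambled siRNA, opposite in direction to BCL2L11. The list's medians were 0.32 and 0.58. None of the listed genes passed limma over all 14429 genes (0% called, adjusted p = 0.9999 for each). Among genes averaging 10 TPM or more limma called 5 of the regulators, all higher, EGR1 (adjusted p = 1.57e-11), ATF3, FOS, JUN and DDIT3 (largest adjusted p = 0.00066), where 0.92% of genes were called higher. Among protein-coding genes it called the same 5 (largest adjusted p = 0.000436), and without mitochondrially encoded genes it called EGR1, ATF3 and FOS (largest adjusted p = 0.0473).

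**Figure D4:**
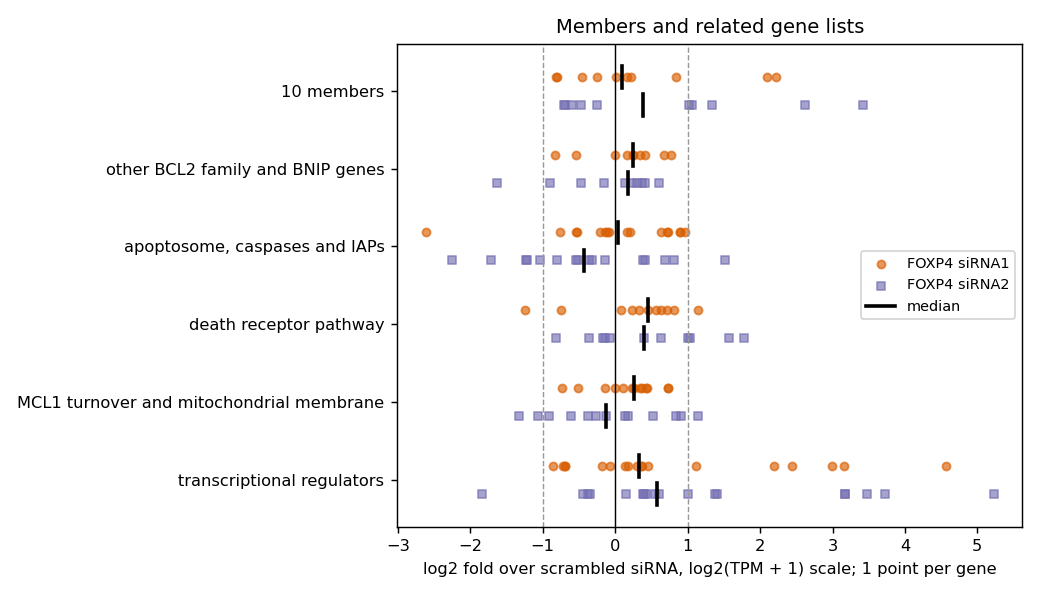
Log2 folds over the scrambled library for the 10 members and for the tested genes of 5 related lists, 1 point per gene and siRNA, with black bars at the medians and dashed lines at 2-fold. The apoptosome, caspase and IAP list has the lowest median with siRNA2, at -0.44, and the 10 members have medians of 0.09 and 0.38.

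The genes most like MCL1 in their pair of log2 folds, by Euclidean distance among the 9129 genes averaging 10 TPM or more, were CD274 at a distance of 0.09, ROCK1P1 at 0.13, MMP1 at 0.21, JUN at 0.23 and DDIT3 at 0.25. CD274, the gene of PD-L1, measured 11.1 TPM with siRNA1, 29.2 TPM with siRNA2 and 1.76 TPM with the scrambled siRNA. At so low a control level, log2(TPM + 1) makes the folds of CD274 smaller. Its plain TPM ratios to the scrambled library were larger than those of MCL1 with both siRNAs, so its small distance rests partly on that scale. The genes most like PMAIP1 were SLC38A2 at a distance of 0.19, RP1-151F17.1 at 0.22, IER3 at 0.24, CDKN2B at 0.28 and RP11-1149O23.2 at 0.29. IER3, an immediate early gene, measured 1303 TPM with siRNA1, 2344 TPM with siRNA2 and 326 TPM with the scrambled siRNA. With the scrambled siRNA, CD274, ROCK1P1, RP1-151F17.1 and RP11-1149O23.2 lay below 10 TPM. They passed the filter on the mean only through their higher levels in the knockdown libraries. Likeness over 3 libraries rests on 2 folds that share a control.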

How the data were processed

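RNA was measured in 3 libraries. Polyadenylated RNA was captured and made into NEBNext libraries, per the labels' protocols. The authors deposited 1 table of TPM, and per the submitters' processing notes the build was GRCh38 (hg38). Which quantifier and annotation were used is not given in the sources used here. Every library has the same TPM total, so genes that gain TPM take it from others.

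Rows averaging 1 TPM or more (14429 of 31907) were compared on log2(TPM + 1) in R 4.3.3 by limma 3.58.1 (variance trend on intensity, two-sided Benjamini-Hochberg adjusted p-values over all genes, threshold 0.05) on the 2 knockdown libraries against 1 scrambled library. A rule of size, at least 2-fold, stood beside it for each siRNA. The limma fit and the depth estimate were run on simulated data as a check of the code. The limma simulation gave every gene the same spread, smaller than that between the siRNAs. It therefore does not show how well limma performs on these libraries. Depth was estimated from the steps of low TPM values times GENCODE 29 exon length. Of values with at most 10 estimated reads, 92.5% to 92.9% lay within 0.1 of a whole number. GC content, known for 85.4% of genes tested, was that of the longest GENCODE 29 transcript. Its trend was removed with a lowess curve (fraction 0.3, statsmodels 0.14.6) fitted at 10 TPM or more.

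The members, lists and tests were chosen with earlier results of these data known. Genes were named by rule: all members, up to 4 genes per list with the largest smaller fold of 1 sign with both siRNAs, and 5 nearest genes each for MCL1 and PMAIP1. MARCH5 in the turnover list was not matched, because 26 row names stood as spreadsheet dates. Other pseudocounts, filters, scalings and gene sets were tried. Some genes of the lists are counted but not reported by name here.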

Additional observations from a re-analysis of the deposited data

How the results depend on the processing

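MCL1 and PMAIP1 were at least 2-fold above the scrambled library with each siRNA in every alternative run, and the call by limma depended on the genes tested. Limma called 93 genes among those averaging 10 TPM or more, 92 among protein-coding genes and 11 without mitochondrially encoded genes, against 0 in the main setting. MCL1 and PMAIP1 were the 2 members called at 10 TPM (mean log2 folds of 2.82 and 2.36) and the 2 called among protein-coding genes, and 0 members were called without mitochondrially encoded genes. Members at least 2-fold higher with siRNA2 numbered 3 without mitochondrially encoded genes. BAD reversed to a mean log2 fold of 0.26 with the GC trend removed, against -0.34. Over all genes, siRNA1 had 312, 351, 383 and 448 at least 2-fold higher with a pseudocount of 5, a mean of at least 10 TPM, protein-coding genes and the GC trend removed, and 331, 397, 478 and 291 lower in the same order. For siRNA2 these were 575, 594 and 641 higher with the first 3, and 812, 993, 1211 and 850 lower with all 4. With siRNA2, 1173 genes were lower with median-of-ratios rescaling and 1152 with quantile normalization, which brought the median of all genes to 0.00 and -0.05, against -0.24. As shares of all calls with siRNA2, higher genes were 34.3% as deposited, 54.1% with median-of-ratios rescaling, 52.7% with quantile normalization and 56.3% with the GC trend removed. With siRNA1 they were 46.7% as deposited and 60.6% with the GC trend removed. The cause of these shifts was not tested.

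With either siRNA left out, a value with no test, the log2 fold was 2.22 to 3.42 for MCL1 and 2.10 to 2.62 for PMAIP1. As deposited, BBC3, BIK and BAD changed sign, at -0.25 to 1.33, -0.25 to 0.84 and -0.69 to 0.01. The upper value of BAD was near the control. With the GC trend removed BBC3 and BIK kept their sign, at 0.81 to 1.70 and 0.06 to 1.14, and BAD lay at -0.35 to 0.86. No paired analysis was possible because there was 1 scrambled library and the labels do not pair it with either knockdown library. Depth limits BAD, at about 18.8 estimated reads with siRNA2.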

Other observations

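BCL2L1 and BAK1 kept nearly the same ratio in all 3 libraries, 3.92 with siRNA1, 3.93 with siRNA2 and 4.06 with the scrambled siRNA, although both measured about 2-fold higher with siRNA2. The pair was chosen after the ratios were seen. BBC3 over PMAIP1, both BH3-only genes, was 0.99 with siRNA1, 2.07 with siRNA2 and 5.16 with the scrambled siRNA. These genes lie far apart in GC content, at 69.7% and 37.2%. With the GC trend removed their siRNA1 log2 folds were 0.81 and 1.60, in place of -0.25 and 2.10. The gap between them with siRNA1 was then much smaller. With siRNA2 they were 1.70 and 2.72, in place of 1.33 and 2.62. Removing PMAIP1 and BBC3 from the BH3-only sum left 206 TPM with siRNA1, 116 TPM with siRNA2 and 149 TPM with the scrambled siRNA for BCL2L11, BID, BAD and BIK, of which BIK held the most in each library.

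DIABLO, whose product SMAC leaves mitochondria with cytochrome c and blocks IAPs, was listed at 0.44 TPM with siRNA1, 0.51 TPM with siRNA2 and 0.68 TPM with the scrambled siRNA, and BNIP3 at 0.63, 0.49 and 0.39 TPM in that order. CYCS, the gene of cytochrome c, measured 144 TPM with siRNA1, 103 TPM with siRNA2 and 128 TPM with the scrambled siRNA. These genes were named after their values were seen. Which annotation and counting gave the values is not given in the sources used here, so a low listed value of DIABLO or BNIP3 does not by itself show low expression.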
